A study of Homo sapiens with 24 samples.

Results

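The mRNA levels of 4 genes of the SUMO pathway, SUMO2, SUMO3, SAE1 and UBA2, were followed in lymphoma cells treated with TAK-981, an inhibitor of the enzyme that SAE1 and UBA2 form. They were chosen by name from the deposited table of raw RNA sequencing counts, after its Ensembl gene IDs had been matched to symbols. The 4 are SUMO2 (ENSG00000188612), SUMO3 (ENSG00000184900), SAE1 (ENSG00000142230) and UBA2 (ENSG00000126261), out of 58676 gene IDs in all. All 4 passed the filter on low counts, which left 17327 genes for the tests. The cells were 4 human lines labelled U-2932, OCI-LY19, OCI-LY3 and SU-DHL-10, each described as B cells of diffuse large B-cell lymphoma with a wild-type genotype. Each line was sampled after 8 h of TAK-981 and at 0 h, with 2 replicate libraries per group, which gave 16 libraries in 8 groups. The sources used here do not give the concentration of TAK-981, and no vehicle sample at 8 h was analysed, so 8 h in culture is part of every change.

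SUMO proteins are small relatives of ubiquitin that are attached to lysines of other proteins, many of them in the nucleus. A SUMO precursor is first trimmed by a protease, then activated with ATP by the E1 enzyme, a heterodimer of SAE1 and UBA2, and handed to a single E2 enzyme. E3 ligases help the E2 to choose targets, and proteases of the SENP family remove SUMO again. SUMO2 and SUMO3 encode nearly identical mature proteins that can form chains, and free SUMO2/3 is attached in large amounts under heat and other stress. UBA2 carries the cysteine that holds SUMO during activation. TAK-981 forms an adduct with SUMO on the E1, which stops the cascade at its first step. The mRNA values below say nothing of protein or conjugate amounts.

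The libraries held 16770677 to 24694466 gene counts each, and the 4 genes had between 1145 and 8728 counts in each. The labels do not say that replicates were separate cultures, so the p-values measure the spread between these libraries, which may be technical. In the tests across lines, fitted with line and time alone, that spread also holds differences in change between lines. A chi-square of the counts between replicates, divided by its degrees of freedom, ran from 2.64 to 12.5, and no pair of libraries agreed within sampling noise. Where the labels say SU-DHL-10 the series' design text has SU-DHL4, and the labels are followed. At 0 h the OCI-LY19 libraries were closer to those of OCI-LY3 than any other lines were to each other. Mean log2 CPM (counts scaled to library size by TMM) had r = 0.978 across genes in that pair of lines and 0.817 to 0.878 in the other 5. The labels do not say whether libraries of these lines are related or mixed, and this was not tested, so each count of lines below takes them as the separate lines they are labelled as. All 7 B-cell markers stood at 1 CPM or more in every group. Of these markers 4 fell across lines and 3 were not called, with a median log2 fold change of -0.41. The same test called 18.1% of all genes in either direction. CD79B, which signals for surface immunoglobulin, fell most, by 1.25 ± 0.11. Markers called higher and lower were 2 and 5 in U-2932, 0 and 2 in OCI-LY19, 0 and 6 in OCI-LY3 and 0 and 4 in SU-DHL-10. The shares of all genes called were 50.9%, 39.4%, 25.5% and 12.6% in the same order. PAX5 (0.91) and BLK (0.52) were the 2 called higher in U-2932. The summed level of all 7 markers was 1655 to 1671 CPM at 8 h and 2337 to 2403 CPM at 0 h in U-2932, and 1563 to 1573 CPM at 8 h and 1672 to 1717 CPM at 0 h in OCI-LY19. In OCI-LY3 it was 2675 to 2704 CPM at 8 h and 3517 to 3581 CPM at 0 h, and in SU-DHL-10 the times overlapped, with 3678 to 3772 CPM at 8 h and 3635 to 4081 CPM at 0 h. The part of these marker changes in the SUMO gene results was not tested. The 6 T and NK cell markers summed to between 0.0436 and 4.20 CPM and the 5 myeloid markers to between 0.177 and 13.7 CPM. The 6 epithelial and stromal markers summed to 0.177 to 11.7 CPM in SU-DHL-10 and U-2932. In OCI-LY3 they summed to between 121 and 126 CPM at 8 h and between 79.2 and 98.8 CPM at 0 h, and in OCI-LY19 to between 173 and 174 CPM at 8 h and between 71.7 and 85.9 CPM at 0 h. COL1A1, a collagen chain, made up nearly all of these sums, with means of 123 and 88.2 CPM at 8 h and 0 h in OCI-LY3 and 173 and 75.0 CPM in OCI-LY19, while COL1A2 stayed under 0.2 CPM in both lines. The part of COL1A1-bearing cells in the SUMO gene changes of these lines was not tested. Fewer cells of a type and less RNA per cell cannot be told apart in such bulk libraries.

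Of the 4 genes, 3 matched the RefSeq promoter table used here, SUMO2, SUMO3 and UBA2, and the fourth is SAE1. The bases just upstream of the 3 annotated starts are shown so that the related SUMO2 and SUMO3 can be read side by side with a subunit of the E1. They are the 250 bases before each start from RefSeq (GRCh38.p14), at chr17:75182960-75183209 on the minus strand for SUMO2, chr21:44818063-44818312 on the minus strand for SUMO3 and chr19:34428131-34428380 on the plus strand for UBA2. Each is written 5′ to 3′ along its gene, and capitals mark matches to the motifs named after them.
SUMO2: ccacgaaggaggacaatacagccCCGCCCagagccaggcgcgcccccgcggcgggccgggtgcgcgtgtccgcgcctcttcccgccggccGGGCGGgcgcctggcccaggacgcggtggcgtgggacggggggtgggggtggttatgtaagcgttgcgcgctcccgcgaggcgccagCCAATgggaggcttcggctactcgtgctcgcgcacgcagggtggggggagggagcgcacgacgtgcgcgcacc
SUMO3: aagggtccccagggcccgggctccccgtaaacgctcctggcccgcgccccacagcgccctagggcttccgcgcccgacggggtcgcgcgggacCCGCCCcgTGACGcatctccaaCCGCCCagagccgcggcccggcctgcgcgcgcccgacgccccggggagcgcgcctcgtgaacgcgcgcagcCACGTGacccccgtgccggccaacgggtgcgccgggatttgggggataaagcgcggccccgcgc
UBA2: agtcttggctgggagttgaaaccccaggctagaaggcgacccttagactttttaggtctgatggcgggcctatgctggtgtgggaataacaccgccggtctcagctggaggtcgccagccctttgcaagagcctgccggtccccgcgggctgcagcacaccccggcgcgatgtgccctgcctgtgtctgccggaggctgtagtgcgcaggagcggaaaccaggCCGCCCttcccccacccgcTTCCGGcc

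These windows were 76.4% (SUMO2), 78.8% (SUMO3) and 65.6% (UBA2) G and C, against a median of 58% over 27305 promoters. The GC box GGGCGG, searched like all motifs on both strands, matched 2 times in SUMO2, 2 times in SUMO3 and 1 time in UBA2, and 42.3% of all promoter windows held it. SUMO2 also held a CCAAT box, CCAAT, 73 bases before its start (33% of windows). SUMO3 held the E-box CACGTG 64 bases before its start (6.49% of windows) and the cyclic AMP response half-site TGACG (21.7%). In UBA2 the ETS motif CCGGAA lay on the opposite strand 8 bases before the start (14.8%). No printed match overlapped another. The E2F motifs TTTCCCGC and TTTGGCGC (1.42% and 0.553% of windows), the heat shock pair GAANNTTC (5.85%) and the TATA box TATAAA (11.1%) were not among the letters of these 3 windows.

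Across the 4 lines, SUMO2 and SUMO3 mRNA rose at 8 h, while SAE1 and UBA2, the subunits of the inhibited enzyme, were not called in either direction. SUMO3 rose by 0.41 ± 0.07 on the log2 scale (± is the SE for this and each later fold change), or 1.32-fold, with an adjusted p of 0.00168 (quasi-likelihood test of edgeR, adjusted by Benjamini-Hochberg over all genes tested, 8 against 8 libraries with line as a term). SUMO2 rose by 0.37 ± 0.12, with an edgeR adjusted p of 0.0368 and a wider 95% interval, 0.12 to 0.62. SAE1 stood at 0.03 ± 0.06, with an interval from -0.11 to 0.16 and an edgeR adjusted p of 0.809. UBA2 stood at 0.09 ± 0.06, with an interval from -0.04 to 0.22 and an edgeR adjusted p of 0.330. The test called 2 of the 4 genes, both higher, and 18.1% of all genes. Of all tested genes, 85.2% had a lower log2 fold change than SUMO3, 83.5% than SUMO2, 60.9% than UBA2 and 53.4% than SAE1. The SUMO2 call was lost when any 1 of the 8 OCI-LY19 and OCI-LY3 libraries was left out (log2 fold changes of 0.29 to 0.38, edgeR adjusted p of 0.0566 to 0.0897), and without the whole OCI-LY19 line (0.15, edgeR adjusted p = 0.145) or the OCI-LY3 line (0.38, 0.143). The SUMO3 call was kept without each of the 16 libraries in turn.

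**Figure D1:**
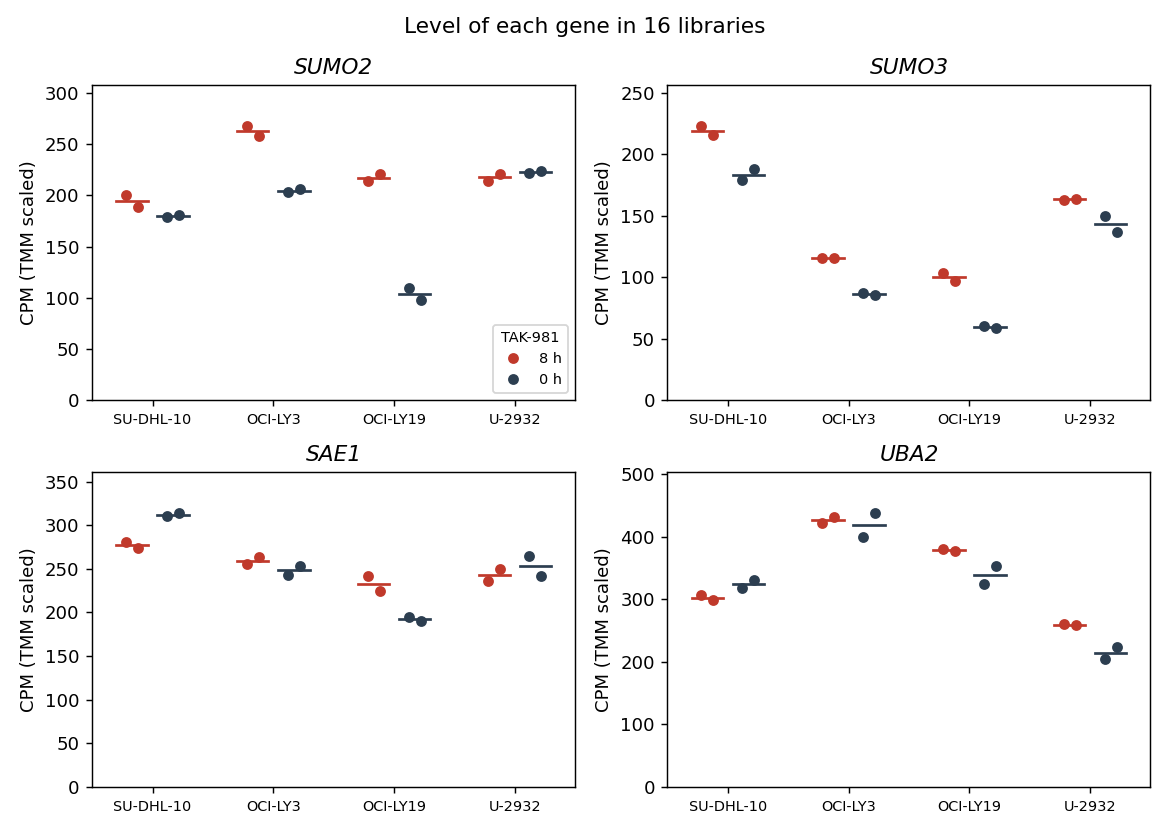
Level of each gene in CPM (TMM scaled) in every library, by line, with 8 h of TAK-981 left of 0 h in each line. Points are libraries and bars are group means (n = 2); the SUMO2 points of OCI-LY19 at 8 h, 214 and 221 CPM, sit far above those at 0 h, 109.7 and 98.1 CPM.

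SUMO2 moved most in OCI-LY19. It had 214 and 221 CPM at 8 h in that line, against 109.7 and 98.1 CPM at 0 h, a log2 fold change of 1.06 ± 0.07 or 2.09-fold (edgeR adjusted p = 2.38e-15). In OCI-LY3 the gene had 268 and 258 CPM at 8 h, against 203 and 206 CPM at 0 h, a log2 fold change of 0.36 ± 0.06 (edgeR adjusted p = 3.22e-05). The times did not overlap in either line. SU-DHL-10 gave 201 and 189 CPM at 8 h and 179 and 181 CPM at 0 h, which did not overlap but was not called (0.11 ± 0.06, edgeR adjusted p = 0.284). U-2932 gave 214 and 221 CPM at 8 h and 222 and 224 CPM at 0 h, slightly lower at 8 h and not called (-0.04 ± 0.06, with an interval from -0.17 to 0.09). SUMO2 was thus called higher in 2 of 4 lines. Rows for 19 SUMO2 pseudogenes held 27 to 71 counts per library, 0.710% to 1.91% of the SUMO2 counts, and the sources used here do not say how reads shared with them were assigned.

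SUMO3, the closest relative of SUMO2, was called higher in each of the 4 lines. Its values in OCI-LY19 were 103 and 97.0 CPM at 8 h, against 60.0 and 58.4 CPM at 0 h, a log2 fold change of 0.76 ± 0.07 (edgeR adjusted p = 4.45e-11). In OCI-LY3 it had 116 and 115 CPM at 8 h, against 86.8 and 85.7 CPM at 0 h (0.42 ± 0.07, edgeR adjusted p = 8.89e-06). These groups stood clear of each other, with replicates within a few CPM. SU-DHL-10, where the gene was most abundant, had 223 and 216 CPM at 8 h and 179 and 188 CPM at 0 h (0.26 ± 0.06, edgeR adjusted p = 0.00534). U-2932 had 162 and 164 CPM at 8 h and 149.6 and 137 CPM at 0 h (0.19 ± 0.07, edgeR adjusted p = 0.0149). No groups overlapped in these lines either, but the changes were smaller and their calls did not hold without single libraries. In SU-DHL-10 the call was lost without replicate 1 at 8 h (0.23, edgeR adjusted p = 0.103) or replicate 1 at 0 h (0.22, 0.0553), and in U-2932 without replicate 1 at 8 h (0.20, 0.0518), replicate 2 at 8 h (0.19, 0.0762) or replicate 2 at 0 h (0.13, 0.175). With spike-in scaling the SU-DHL-10 value was 0.39, not called.

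SAE1, the smaller subunit of the E1, was called in 1 line only, OCI-LY19. It had 242 and 224 CPM at 8 h there, against 195 and 191 CPM at 0 h, a log2 fold change of 0.27 ± 0.06 (edgeR adjusted p = 6.80e-04). SU-DHL-10 had 281 and 274 CPM at 8 h and 310.1 and 314 CPM at 0 h, lower in both libraries at 8 h but not called (-0.17 ± 0.06, edgeR adjusted p = 0.0686). OCI-LY3 had 255 and 263 CPM at 8 h and 242 and 254 CPM at 0 h (0.06 ± 0.06, edgeR adjusted p = 0.534). U-2932 had 236 and 250.2 CPM at 8 h and 264 and 241 CPM at 0 h (-0.06 ± 0.06, edgeR adjusted p = 0.496). The times overlapped in U-2932 and stood close together in OCI-LY3. The OCI-LY19 call was lost with total counts in place of TMM (0.03) and with spike-in scaling (0.26), and DESeq2 called the SU-DHL-10 difference (-0.18). In the RefSeq annotation SAE1 overlaps 1 long non-coding RNA gene, LOC124904730, and the sources used here do not say whether the counting used strand.

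UBA2, the catalytic subunit, was called higher in U-2932 and OCI-LY19. In U-2932 it had 259.7 and 259 CPM at 8 h, against 204 and 223 CPM at 0 h, a log2 fold change of 0.28 ± 0.06 (edgeR adjusted p = 4.02e-04). OCI-LY19 had 379.7 and 377 CPM at 8 h and 324 and 352 CPM at 0 h (0.16 ± 0.06, edgeR adjusted p = 0.0389). The groups did not overlap in either line, but the OCI-LY19 call was lost without replicate 1 at 8 h (0.16, edgeR adjusted p = 0.141), replicate 2 at 8 h (0.17, 0.117) or replicate 1 at 0 h (0.11, 0.290). OCI-LY3, with the highest UBA2 level, had 423 and 431 CPM at 8 h and 399.9 and 438 CPM at 0 h (0.03 ± 0.06, edgeR adjusted p = 0.840). SU-DHL-10 had 307 and 298 CPM at 8 h and 319 and 331 CPM at 0 h (-0.10 ± 0.06, edgeR adjusted p = 0.356). The OCI-LY3 groups overlapped, and both SU-DHL-10 libraries at 8 h lay below those at 0 h. With total counts in place of TMM the OCI-LY19 value was -0.07 and that of OCI-LY3 -0.01, and with spike-in scaling that of OCI-LY19 was 0.15, not called.

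By line, 4 of the 4 genes were called in OCI-LY19, 2 in OCI-LY3, 2 in U-2932 and 1 in SU-DHL-10, each of them higher. The share of all tested genes called was 39.4% in OCI-LY19, 25.5% in OCI-LY3, 50.9% in U-2932 and 12.6% in SU-DHL-10. Within OCI-LY19, 91.4% of tested genes had a lower log2 fold change than SUMO2 and 87.6% a lower one than SUMO3. In U-2932, where the most genes were called, these figures were 47.3% for SUMO2 and 60.1% for SUMO3.

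**Figure D2:**
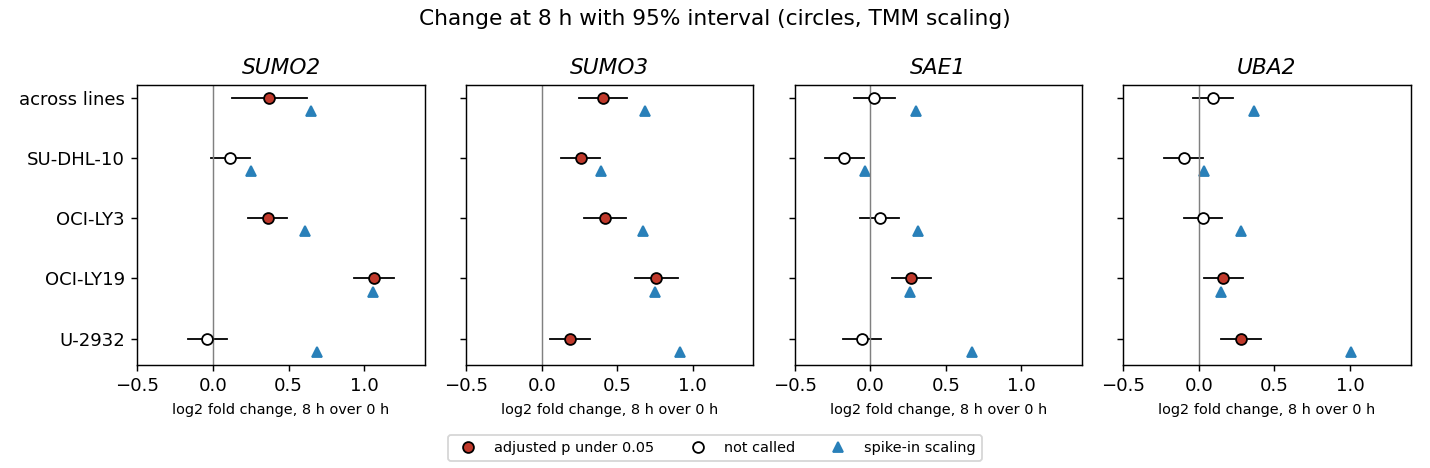
Log2 fold change of each gene, 8 h over 0 h, across the lines and in each line (circles with 95% interval, TMM scaling; filled where the edgeR adjusted p is under 0.05) and after scaling by spike-in totals (triangles). SUMO3 is filled in every row, SUMO2 reaches 1.06 in OCI-LY19, and the triangles lie farthest to the right of the circles in U-2932.

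The change at 8 h differed between the lines for each of the 4 genes. The test of any difference between the 4 changes gave edgeR adjusted p-values of 9.05e-12 for SUMO2, 1.66e-05 for SUMO3, 5.12e-04 for SAE1 and 0.00300 for UBA2. It called 4 of the 4 genes and 53.5% of all genes. With total counts in place of TMM the SUMO3 and SAE1 differences were no longer called (edgeR adjusted p = 0.142 and 0.287), nor was that of SUMO3 with spike-in scaling (0.185). For SUMO2, 4 of 6 pairs of lines were called, and the change in U-2932 was 1.10 ± 0.09 lower on the log2 scale than that in OCI-LY19 (edgeR adjusted p = 3.30e-12). The change in OCI-LY19 exceeded that in SU-DHL-10 by 0.95 ± 0.09 and that in OCI-LY3 by 0.70 ± 0.09. With spike-in scaling the SUMO2 difference of U-2932 minus OCI-LY19 was -0.37 (edgeR adjusted p = 0.159) and that of OCI-LY19 minus OCI-LY3 was 0.45 (0.238), and neither was called. SUMO3 also had 4 of 6 pairs called, with a change in OCI-LY19 that was 0.50 ± 0.09 above SU-DHL-10 (edgeR adjusted p = 6.99e-05) and 0.34 ± 0.10 above OCI-LY3 (edgeR adjusted p = 0.0130, and 0.0975 without replicate 1 of OCI-LY19 at 8 h, where the difference was 0.30). Its change in U-2932 was lower than that in OCI-LY19 by 0.57 ± 0.09. The fourth SUMO3 pair, U-2932 minus OCI-LY3 at -0.23 ± 0.09, lay at the threshold and lost its call without any 1 of 13 libraries (-0.16 to -0.23). These SUMO3 differences depended on the scaling. OCI-LY19 minus SU-DHL-10 was not called with total counts (0.20, edgeR adjusted p = 0.0943) or spike-in scaling (0.36, 0.313), nor was OCI-LY19 minus OCI-LY3 (0.14 and 0.083). With spike-in scaling U-2932 minus OCI-LY19 turned to 0.16 and U-2932 minus OCI-LY3 to 0.25, neither of them called. That scaling also moved the median gene to 0.70 in U-2932 and 0.20 in OCI-LY3, and left it at 0 in OCI-LY19.

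SAE1 had 2 of 6 pairs called, OCI-LY19 minus SU-DHL-10 (0.44 ± 0.09) and U-2932 minus OCI-LY19 (-0.33 ± 0.09). Neither call held with total counts or with spike-in scaling. The first was 0.14 with total counts (edgeR adjusted p = 0.213) and 0.29 with spike-in scaling (0.424), and the second turned to 0.021 and 0.41. UBA2 had 3 of 6, OCI-LY19 minus SU-DHL-10 (0.26 ± 0.09), U-2932 minus SU-DHL-10 (0.38 ± 0.09) and U-2932 minus OCI-LY3 (0.25 ± 0.09). The first and the third of these UBA2 calls were each lost without any 1 of 5 libraries, with differences of 0.21 to 0.27 and of 0.19 to 0.26. The first turned to -0.037 with total counts and was 0.11 with spike-in scaling, not called in either case. The shares of all genes called in the 6 pairs were 14.2% for OCI-LY3 minus SU-DHL-10, 29.8% for OCI-LY19 minus SU-DHL-10, 32.8% for U-2932 minus SU-DHL-10, 15.4% for OCI-LY19 minus OCI-LY3, 38.0% for U-2932 minus OCI-LY3 and 46.2% for U-2932 minus OCI-LY19. OCI-LY3 minus SU-DHL-10 called none of the 4 genes, with edgeR adjusted p-values of 0.0585 (SUMO2) to 0.415 (UBA2) and unadjusted p-values under 0.05 for SUMO2 and SAE1. The SUMO2 difference of that pair, 0.25 ± 0.09, was called without either 0 h replicate of OCI-LY19 (edgeR adjusted p = 0.0371 and 0.0365) and by DESeq2.

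The lines already differed in these mRNAs at 0 h, and with TMM scaling the order of lines was not the same for the 4 genes. The test of any difference between lines at 0 h gave edgeR adjusted p-values of 5.86e-21 for SUMO3, 3.04e-16 for SUMO2, 2.49e-14 for UBA2 and 1.05e-10 for SAE1. It called 4 of the 4 genes and 87.3% of all genes. SUMO3 ran in the order SU-DHL-10, U-2932, OCI-LY3 and OCI-LY19 with all 6 pairs called, and its highest group mean was 3.10 times its lowest. SUMO2 ran from U-2932 through OCI-LY3 and SU-DHL-10 to OCI-LY19, over a 2.15-fold range with 5 of 6 pairs called. U-2932 and OCI-LY3 were not called apart for SUMO2 (0.13 ± 0.06, edgeR adjusted p = 0.0775). They were called apart with RLE scaling (0.18, edgeR adjusted p = 0.0117), total counts (0.18, 0.0124) and the stricter filter (0.23, 0.00125), and by DESeq2 (0.18). The same held without the SU-DHL-10 line (0.14, edgeR adjusted p = 0.0408) or the OCI-LY19 line (0.14, 0.0454). The SUMO2 difference of OCI-LY3 minus SU-DHL-10, 0.18 ± 0.06, was lost without replicate 1 of SU-DHL-10 (0.17, edgeR adjusted p = 0.0536) or replicate 2 of OCI-LY3 (0.17, 0.0801). These orders are those of TMM scaling, and spike-in scaling gave others. With spike-in scaling SUMO2 at 0 h was lower in U-2932 than in SU-DHL-10 (-3.33) and OCI-LY3 (-2.84), and lower in OCI-LY3 than in SU-DHL-10 (-0.49). SUMO3 in U-2932 minus OCI-LY3 likewise turned to -2.23. At 0 h spike-in RNAs took 0.614% to 0.620% of counts in U-2932 and 0.530% to 0.613% in OCI-LY19. They took 0.0715% to 0.0823% in OCI-LY3 and 0.0459% to 0.0529% in SU-DHL-10. Scaling by spike-in totals thus shifts all genes of these lines together, so such 0 h values are not particular to the SUMO genes. The shift of the median gene at 0 h was not computed.

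SAE1 ran from SU-DHL-10 through U-2932 and OCI-LY3 to OCI-LY19 over a 1.62-fold range at 0 h, with U-2932 and OCI-LY3 not called apart (0.03 ± 0.06, with an interval from -0.10 to 0.16). With the stricter filter that SAE1 pair was called (0.13, edgeR adjusted p = 0.0475). UBA2 had another order, OCI-LY3, OCI-LY19, SU-DHL-10 and U-2932, over a 1.96-fold range. OCI-LY19 and SU-DHL-10 were not called apart for UBA2 (0.06 ± 0.06, edgeR adjusted p = 0.430). They were with total counts (0.22, edgeR adjusted p = 0.00162) and with the stricter filter (0.18, 0.00807). Each of SAE1 and UBA2 had 5 of 6 pairs called. With spike-in scaling SAE1 in U-2932 minus OCI-LY3 turned to -2.93, and UBA2 turned to -0.32 in OCI-LY3 minus SU-DHL-10 and -3.31 in OCI-LY19 minus SU-DHL-10. These values carry the same shift of all genes. The shares of all genes called at 0 h were 57.2% for OCI-LY3 minus SU-DHL-10, 63.8% for OCI-LY19 minus SU-DHL-10, 68.7% for U-2932 minus SU-DHL-10, 39.4% for OCI-LY19 minus OCI-LY3, 69.3% for U-2932 minus OCI-LY3 and 70.6% for U-2932 minus OCI-LY19. The ratio of the highest to the lowest group mean was smaller at 8 h than at 0 h for every gene, 1.35 against 2.15 for SUMO2, 2.19 against 3.10 for SUMO3, 1.19 against 1.62 for SAE1 and 1.65 against 1.96 for UBA2. OCI-LY19, the line with the lowest 0 h means of SUMO2, SUMO3 and SAE1, had the highest log2 fold change of each with TMM scaling. With spike-in scaling this held for SUMO2, while SUMO3 and SAE1 were highest in U-2932 (0.92 and 0.67), where the median gene also moved to 0.70. Relative to the median gene on that scale, SUMO3 and SAE1 were again highest in OCI-LY19 (0.75 and 0.26) and stood at 0.22 and -0.03 in U-2932. A change from 0 h and the 0 h level share the 0 h libraries, so the 2 are not independent.

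The balance of the paired genes was read as a log2 ratio of counts within each library, which needs no scaling between libraries. Transcript lengths were not used here, so the ratio's size is not a ratio of molecules and only its differences between libraries are read. The SUMO2 to SUMO3 ratio in OCI-LY19 was 1.05 and 1.19 at 8 h, against 0.87 and 0.75 at 0 h. In U-2932 it moved the other way, with 0.40 and 0.43 at 8 h and 0.57 and 0.71 at 0 h. SU-DHL-10 had -0.15 and -0.19 at 8 h and 0.00 and -0.06 at 0 h, and OCI-LY3 had 1.21 and 1.16 at 8 h and 1.23 and 1.26 at 0 h. The times did not overlap in any of the 4 lines, with SUMO2 gaining on SUMO3 in OCI-LY19 and SUMO3 on SUMO2 in the other 3. The mean over lines was -0.03 (exact permutation of times within lines, two-sided, p = 0.657, where the smallest p possible is 0.00154).

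The SAE1 to UBA2 log2 ratio in U-2932 was -0.14 and -0.05 at 8 h, against 0.38 and 0.11 at 0 h. SU-DHL-10 had -0.13 and -0.12 at 8 h and -0.04 and -0.07 at 0 h. The times overlapped in OCI-LY3, with -0.73 and -0.71 at 8 h and -0.72 and -0.79 at 0 h, and in OCI-LY19, with -0.65 and -0.75 at 8 h and -0.73 and -0.89 at 0 h. The mean over lines was -0.07 (exact permutation within lines, two-sided, p = 0.329). The subunit mRNAs stood in a similar ratio in OCI-LY3 and OCI-LY19, near -0.7 to -0.8, and closer to 0 in the other lines at both times.

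**Figure D3:**
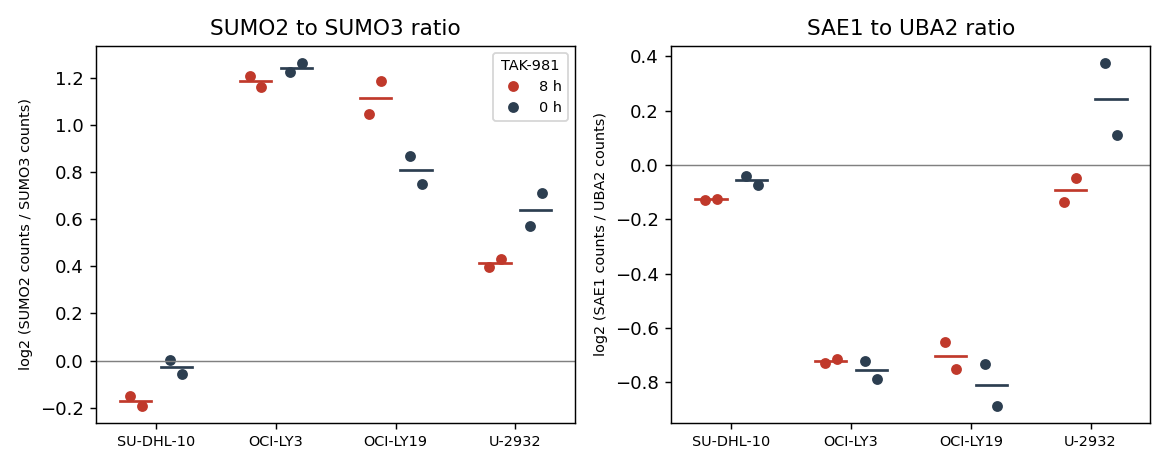
Log2 ratio of SUMO2 to SUMO3 counts and of SAE1 to UBA2 counts in each library, by line, with 8 h left of 0 h; points are libraries and bars are group means (n = 2). The SUMO2 to SUMO3 ratio lies higher at 8 h than at 0 h in OCI-LY19 alone, and the range of group means over lines is wider than any difference between times.

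Spike-in RNAs allowed a second scaling. They took a smaller share of counts at 8 h than at 0 h in U-2932, 0.382% to 0.427% against 0.614% to 0.620%, and in OCI-LY3, 0.0575% to 0.0693% against 0.0715% to 0.0823%. In OCI-LY19 the share was 0.475% to 0.499% at 8 h and 0.530% to 0.613% at 0 h. In SU-DHL-10 the times overlapped, with 0.0435% to 0.0502% at 8 h and 0.0459% to 0.0529% at 0 h. The labels do not say how much spike-in RNA was added or to what. Scaling by these totals moved the median log2 fold change of all genes to 0.28 across lines, 0.70 in U-2932, 0.20 in OCI-LY3 and 0.11 in SU-DHL-10, and left it at 0 in OCI-LY19. Genes called higher then made up 93.3% of all calls across lines, against 55.4% with TMM. On that scale SUMO2 in U-2932 stood at 0.69 and SAE1 at 0.67, both called, against -0.04 and -0.06 with TMM, and relative to the median gene they stood at -0.01 and -0.03. Relative to the median gene, the changes across lines with spike-in scaling were 0.37 for SUMO2, 0.40 for SUMO3, 0.03 for SAE1 and 0.09 for UBA2. Before that subtraction SAE1 (0.30) and UBA2 (0.36) were called across lines.

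SUMO ligases, which bring the loaded E2 to its targets, were set beside these genes together with ubiquitin ligases that recognise SUMO chains. Of 12 such genes, 5 rose across lines, 0 fell and 7 were not called, beside 18.1% of all genes called in either direction, with a median log2 fold change of 0.21, while the median of all genes was -0.00. PIAS1, an E3 ligase of the PIAS family, rose by 0.59 ± 0.08 and was called higher in all 4 lines. RNF111, a ubiquitin ligase that binds SUMO chains, rose by 0.46 ± 0.08, and ZNF451, a ligase that extends SUMO2/3 chains, by 0.40 ± 0.10. PIAS2, of the same family as PIAS1, rose by 0.25 ± 0.07 and TOPORS, a ligase for both ubiquitin and SUMO, by 0.26 ± 0.08. TOPORS lost its call without any 1 of 9 libraries (0.22 to 0.27) and PIAS2 without replicate 2 of U-2932 at 0 h (0.22, edgeR adjusted p = 0.0517). The number called higher depended on the fit, with 2 of the 12 without the OCI-LY3 line, 2 with total counts, 3 with no filter on low counts and 8 with the mean of the line contrasts. The number of all genes called also moved, from 3142 to 1446 without OCI-LY3 and to 7105 with the mean of the line contrasts. Those called higher went from 1740 with TMM to 1324 with total counts. With total counts ZNF451, PIAS2 and TOPORS were not called (0.38, 0.22 and 0.23).

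Of 9 SUMO proteases, which mature SUMO and remove it from targets, 3 rose across lines, 0 fell and 6 were not called. The median log2 fold change was 0.20, and 18.1% of all genes were called in either direction. USPL1 rose by 0.62 ± 0.09, SENP5 by 0.42 ± 0.07 and SENP6, which shortens SUMO2/3 chains, by 0.41 ± 0.09. The number called higher was 6 with spike-in scaling and 6 with the mean of the line contrasts. Of all genes, spike-in scaling called 3991 higher, against 1740 with TMM. The mean of the line contrasts called 7105 in either direction, against 3142 with line as a term. USPL1 and SENP6 were called higher in all 4 lines, and SENP5 in 3. The counts by line, higher against lower, were 7 and 1 in U-2932, 6 and 1 in OCI-LY19, 4 and 0 in OCI-LY3 and 2 and 1 in SU-DHL-10, where the shares of all genes called were 50.9%, 39.4%, 25.5% and 12.6% in the same order.

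The activating enzymes of other ubiquitin-like proteins were set beside SAE1 and UBA2. Of these 8 genes, 1 rose and 0 fell across lines, with a median log2 fold change of -0.03, beside 18.1% of all genes called in either direction. The one was UBA6, a second activating enzyme for ubiquitin, at 0.39 ± 0.10 and called in 3 lines, and its call was lost without the OCI-LY3 line (0.44) and with total counts (0.36). With spike-in scaling 3 of the 8 were called higher, and with the mean of the line contrasts 2 were called lower. Both fits also called more of all genes, 3991 higher against 1740, and 7105 in either direction against 3142. UBA1, the main activating enzyme for ubiquitin, stood at 0.00 ± 0.08 across lines and is named, like UBA3 and UBB below, after its values were seen. Within lines UBA1 was called in opposite directions, higher in OCI-LY19 (0.43) and lower in U-2932 (-0.24). UBA3, the catalytic subunit for NEDD8, stood at -0.09 ± 0.07 and was called lower in OCI-LY3 (-0.23) and OCI-LY19 (-0.23). Of the 8 genes, U-2932 had 1 higher and 3 lower, and OCI-LY19 2 higher and 3 lower. OCI-LY3 had 1 higher and 1 lower, and SU-DHL-10 had 0 of either. The shares of all genes called were 50.9% (U-2932), 39.4% (OCI-LY19), 25.5% (OCI-LY3) and 12.6% (SU-DHL-10).

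Ubiquitin and other ubiquitin-like proteins, the counterparts of SUMO2 and SUMO3, showed no call across lines with line as a term and TMM scaling. Of 15 genes 14 passed the filter, and edgeR called 0 of them, beside 18.1% of all genes. An unadjusted p under 0.05 was also reached by 0, and the median log2 fold change was -0.13. The 3 with the smallest p were FAU, a ubiquitin-like protein fused to a ribosomal protein (-0.40 ± 0.19, edgeR adjusted p = 0.166), NEDD8, which is attached to cullins (-0.30 ± 0.16, 0.216) and MAP1LC3A, of the autophagy machinery (-0.94 ± 0.60, 0.300). MAP1LC3A had 0.67 CPM at 8 h and 2.80 CPM at 0 h in U-2932, and only 0.022 to 0.24 CPM in the groups of the other lines. The count of 0 called also depended on the fit. The mean of the line contrasts called 7 lower, among them FAU (-0.40) and NEDD8 (-0.29), and 3 were lower without the OCI-LY19 line. The former fit called 7105 of all genes, against 3142 with line as a term. With no filter FAU alone was called lower (-0.39), and with spike-in scaling 1 was called higher, as were 3991 of all genes. Within lines they were called in opposite directions. U-2932 had 1 of the 14 higher and 12 lower, with a median of -0.88, and OCI-LY19 had 11 higher and 0 lower, with a median of 0.50. SU-DHL-10 had 0 higher and 5 lower, and OCI-LY3 2 higher and 0 lower. Beside these counts, the shares of all genes called were 50.9% (U-2932), 39.4% (OCI-LY19), 12.6% (SU-DHL-10) and 25.5% (OCI-LY3). UBB, a polyubiquitin gene, had a log2 fold change of 1.08 in OCI-LY19 but -1.40 in U-2932. With spike-in scaling 2 were higher and 6 lower in U-2932, with a median of -0.15, or -0.85 relative to the median gene, and in OCI-LY19 7 were higher and 0 lower. The medians across lines of this list and of the other activating enzymes turned positive on that scale, at 0.15 and 0.24.

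**Figure D4:**
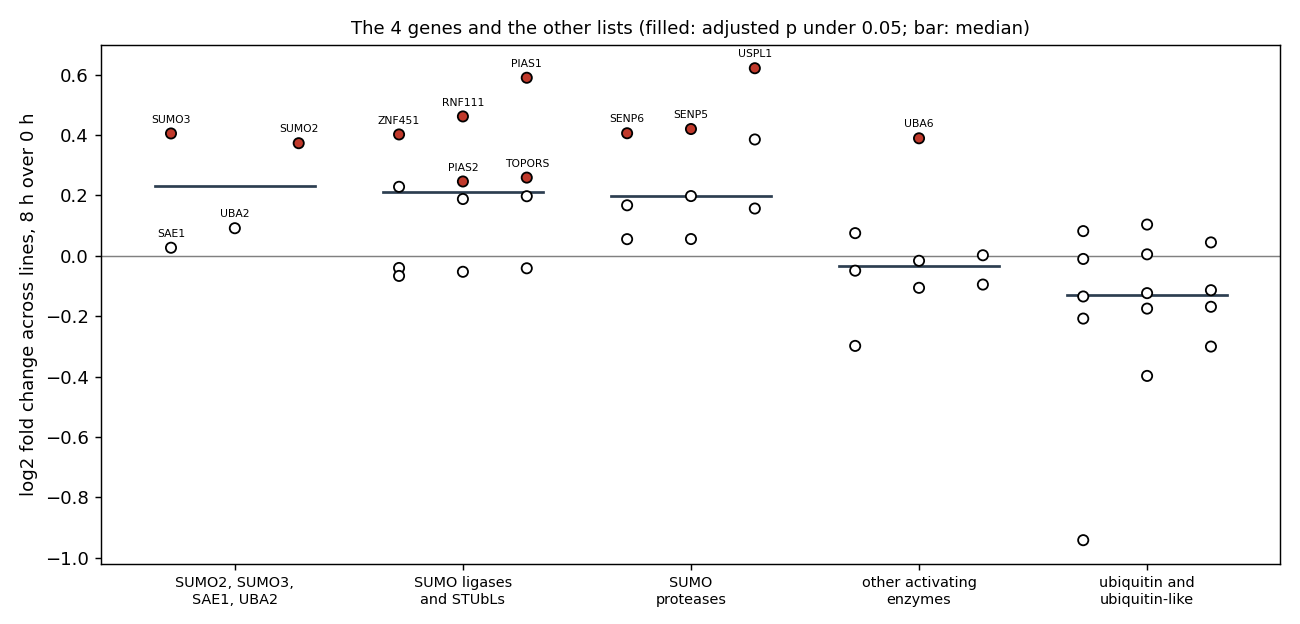
Log2 fold change across lines, 8 h over 0 h, of the 4 genes and of the members of each list past the filter; filled points have an edgeR adjusted p under 0.05 and bars are medians. Filled points occur in the SUMO ligases with the ubiquitin ligases that bind SUMO chains (STUbLs), in the SUMO proteases and, for UBA6, in the other activating enzymes, and none in the ubiquitin-like proteins, whose median is -0.13.

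**Figure D5:**
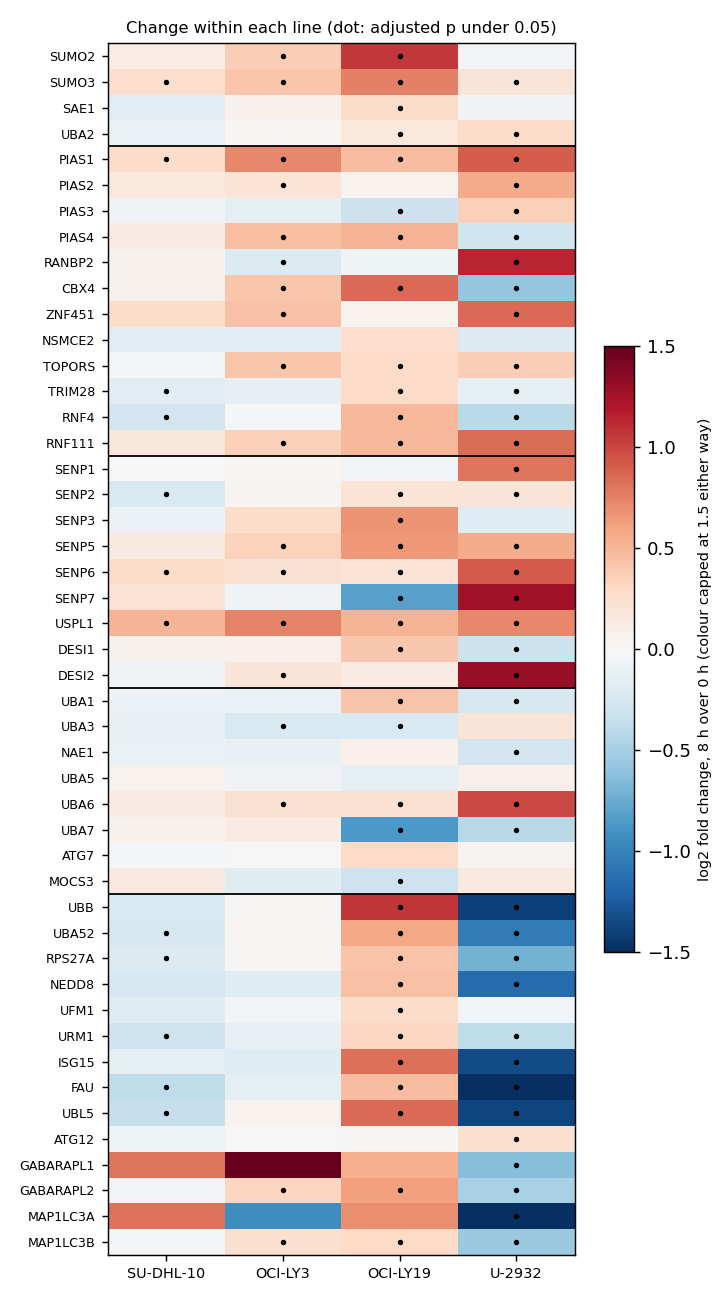
Log2 fold change, 8 h over 0 h, in each line for the 4 genes and the tested members of the lists, with rows as genes and columns as lines. SUMO2 and SUMO3 have their highest values in OCI-LY19. With spike-in scaling SUMO3 is highest in U-2932, but relative to the median gene again in OCI-LY19. The ubiquitin-like proteins are mostly higher in OCI-LY19 and lower in U-2932 with TMM scaling, while with spike-in scaling their median in U-2932 was -0.15.

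The 4 genes varied in different ways over the 8 group means. As a description over 8 groups that share lines, Pearson's r of mean log2 CPM was 0.83 between SUMO3 and SAE1, 0.54 between SUMO2 and SAE1, 0.50 between SUMO2 and SUMO3, 0.01 between SUMO2 and UBA2, -0.08 between SAE1 and UBA2 and -0.47 between SUMO3 and UBA2. The strongest of these likenesses joined SUMO3 with SAE1, and the E1 subunits had an r near 0. Of 9364 genes whose mean was 5 CPM or more, those most like SUMO2 were DVL2, PSMB2, AP1B1, CALR and PPP6R2, with r between 0.94 and 0.90. TEX30, KIFBP, LIMA1 and SIVA1 were among those most like SUMO3, with r between 0.99 and 0.97. ALYREF, HNRNPD, HNRNPAB, NOP14 and H2AZ1 were most like SAE1, with r between 0.98 and 0.97. SCMH1, REXO5, MAP2K4, DNAAF5 and POLR1A were most like UBA2, with r between 0.99 and 0.98.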

How the data were processed

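RNA was measured by sequencing in 16 libraries of 4 lines, 2 per line and time. The series' 8 ATAC-seq samples were not analysed here. The values deposited by the authors are raw counts per gene, with 92 spike-in rows. Per the labels' protocols, RNA was enriched for poly(A), and PCR duplicates were removed. The builds hg19 and GRCh38 and the tools HOMER, bedtools, MACS2, Bowtie2, DESeq2 and Trimmomatic are listed, without roles, per the submitters' processing notes. The aligner, counting program, annotation and strand setting of the counts are not given in the sources used here.

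Of 58676 gene IDs, 58207 had a symbol. Gene counts, 16770677 to 24694466 per library, were filtered (filterByExpr on the 8 groups), TMM-scaled and modelled by quasi-likelihood with edgeR 4.0.16 under R 4.3.3 and limma 3.58.1. Changes across lines came from a model of line and time with 11 residual degrees of freedom, and all other tests from 1 mean per group with 8. P-values were adjusted by Benjamini-Hochberg over 17327 genes, with a threshold of 0.05, and the SE is the absolute log2 fold change over the square root of F. The median biological coefficient of variation was 8.54%. Intervals are at 95%. Likeness between genes used mean log2 CPM with a prior count of 2.

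The 4 genes and the lists were chosen with earlier results of these data known. From the lists, genes called across lines are named, or else the 3 with the smallest p, and for each of the 4 genes the 5 most alike. Other genes of the pathway were not analysed here. The alternatives were DESeq2 1.42.0, RLE scaling, total counts, spike-in totals, no filter and a stricter filter (mean of 5 CPM), a replicate block, the mean of the line contrasts, 1 line alone, pairs of lines, and leaving out each line or library. The scripts were tested on simulated data.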

Additional observations from a re-analysis of the deposited data

Results flagged for a closer look

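The change at 8 h differed between the lines for each of the 4 genes, by the edgeR test of the difference itself (2 libraries per line and time). SUMO2 had an adjusted p of 9.05e-12, with log2 changes of 1.06 (OCI-LY19), 0.36 (OCI-LY3), 0.11 (SU-DHL-10) and -0.04 (U-2932). SUMO3 had an adjusted p of 1.66e-05, with changes of 0.76, 0.42, 0.26 and 0.19 in the same order of lines. SAE1 had an adjusted p of 5.12e-04, with changes of 0.27, 0.06, -0.17 and -0.06. UBA2 had an adjusted p of 0.00300, with changes of 0.16, 0.03, -0.10 and 0.28. The same test called 53.5% of all genes.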

How the results depend on the processing

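With total counts in place of TMM, which moved the median gene of OCI-LY19 to -0.20, the values were -0.0073 for UBA2 in OCI-LY3, 0.033 for SAE1 and -0.075 for UBA2 in OCI-LY19, 0.072 for SUMO2 and 0.054 for SAE1 in U-2932, and the difference in change between lines had an edgeR adjusted p of 0.142 for SUMO3 and 0.287 for SAE1. The differences in change were then -0.037 (UBA2, OCI-LY19 minus SU-DHL-10), -0.068 (UBA2, OCI-LY19 minus OCI-LY3), 0.026 (SAE1, U-2932 minus OCI-LY3) and 0.021 (SAE1, U-2932 minus OCI-LY19). Of all calls, the higher share without TMM was 59.7% (U-2932), 26.6% (OCI-LY19), 44.6% (OCI-LY3) and 70.7% (SU-DHL-10), against 51.0%, 54.9%, 51.1% and 50.1% with TMM. With spike-in scaling it was 92.5%, 50.4%, 81.3% and 87.1%.

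Spike-in scaling gave 0.30 for SAE1 and 0.36 for UBA2 across lines, 0.39 for SUMO3 (no longer called) and 0.036 for UBA2 in SU-DHL-10 with 765 genes called there, 0.26 for SAE1 and 0.15 for UBA2 in OCI-LY19 with 4206 genes called, 0.69 for SUMO2 and 0.67 for SAE1 in U-2932, and an edgeR adjusted p of 0.185 for SUMO3 between lines. At 0 h it gave -0.49 for SUMO2 and -0.32 for UBA2 (OCI-LY3 minus SU-DHL-10), -3.31 for UBA2 (OCI-LY19 minus SU-DHL-10), -3.33 for SUMO2 (U-2932 minus SU-DHL-10), and -2.84 for SUMO2, -2.23 for SUMO3 and -2.93 for SAE1 (U-2932 minus OCI-LY3). These 0 h values carry the unequal spike-in shares of the lines, which shift all genes together. The changes then differed by 0.44 for SUMO2 and 0.52 for SUMO3 (U-2932 minus SU-DHL-10), -0.053 for SAE1 and -0.13 for UBA2 (OCI-LY19 minus OCI-LY3), 0.079 for SUMO2, 0.25 for SUMO3 and 0.36 for SAE1 (U-2932 minus OCI-LY3), and 0.16 for SUMO3 and 0.41 for SAE1 (U-2932 minus OCI-LY19). The stricter filter gave -0.16 for SAE1 in SU-DHL-10 (called), 0.11 for UBA2 in OCI-LY19 (not called) and 9606 genes differing at 0 h, of fewer genes tested. DESeq2 called SAE1 in SU-DHL-10 (-0.18).

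Same-numbered replicates did not deviate together (correlations of -0.083 to 0.019 in the 4 lines). With the replicate block SUMO2 stood at 0.37 across lines (edgeR adjusted p = 0.129) with 1235 genes called, UBA2 at 0.16 in OCI-LY19 (edgeR adjusted p = 0.0521), and 2 of 12 SUMO ligases called higher.

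The mean of the line contrasts called UBA2 (0.092) and 7105 genes. SU-DHL-10 and OCI-LY3 alone gave -0.052 for SAE1, -0.034 for UBA2 and 1933 genes, and OCI-LY19 and U-2932 alone 0.50 for SUMO2 (not called) and 1842 genes. SU-DHL-10 and U-2932 alone, added after seeing the data, gave 0.040 for SUMO2, -0.11 for SAE1, edgeR adjusted p-values between lines of 0.253 (SUMO2), 0.716 (SUMO3) and 0.297 (SAE1), and 5570 genes. Without SU-DHL-10, UBA2 stood at 0.14 in OCI-LY19, with an adjusted p of 0.0733 between lines. Without OCI-LY3, SUMO2 stood at 0.38 across lines, not called, and 1446 genes were called. Without OCI-LY19, SUMO2 stood at 0.15 and SAE1 at -0.048 across lines, with adjusted p-values between lines of 0.0690 (SUMO3) and 0.0547 (SAE1). Without U-2932, UBA2 had 0.0624 and 5574 genes were called between lines. The SUMO2 to SUMO3 ratio difference was 0.035 without U-2932, 0.0075 without SU-DHL-10 and -0.14 without OCI-LY19, the line that went the other way. In the 3 other lines the ratio moved in the same direction, with no overlap of times. Leaving out OCI-LY19 thus fixed the exact permutation p at the smallest possible, 0.00926, so that p cannot decide whether the ratio shifted. With all lines the exact permutation p was 0.657. The SAE1 to UBA2 ratio difference was 0.024 without U-2932. SU-DHL-10 fitted alone gave 1431 genes, and OCI-LY19 alone 0.12 for UBA2, not called.

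Leaving out 1 library at a time gave 0.29 to 0.42 for SUMO2 and -0.0015 to 0.053 for SAE1 across lines, 0.22 to 0.30 for SUMO3 and 972 to 2408 genes in SU-DHL-10, -0.041 to 0.097 for UBA2 in OCI-LY3, 0.11 to 0.23 for UBA2 in OCI-LY19, and 0.13 to 0.26 for SUMO3 and -0.11 to 0.016 for SAE1 in U-2932. It gave -0.045 to 0.087 for SAE1 (U-2932 minus OCI-LY3) and -0.0079 to 0.11 for UBA2 (OCI-LY19 minus SU-DHL-10) at 0 h, and -0.13 to 0.00065 for the SUMO3 change (U-2932 minus SU-DHL-10). The cause of these shifts was not tested.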
